A study of Mus musculus with 12 samples.

Results

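Heat shock proteins are molecular chaperones, and 10 of their genes were followed in the bone marrow of mice lacking the Fanconi anemia genes Fancc, Fancg or both. The genes were taken by name: Hspa1a and Hspa1b (inducible Hsp70), Hsph1 (Hsp110), Dnajb1 (Hsp40), Hspa8 (Hsc70), Hsp90aa1, Hspa5 (BiP), Hspa9 (mortalin), Hspd1 (Hsp60) and Hspe1 (Hsp10). They are 10 of the 18193 genes with a probe set of their own on the array and all 10 were among the 11908 genes bright enough to be tested. Together they had 28 probe sets of 34945, of which 26 passed the same brightness filter. The remaining 2, both of Hsp90aa1, lay below the median of every array.

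The groups were 3 mice nullizygous for Fancc (Fancc-/-), 3 nullizygous for Fancg (Fancg-/-), 3 nullizygous for both (double knockout) and 3 wild type C57Bl/6 mice. Whole, uncultured marrow was flushed from tibia and femur, and per the labels each mouse gave 1 RNA sample and 1 Affymetrix array, with no pooling. The labels give neither the age nor the sex of the mice, and no treatment. All levels are log2 signals as deposited, so a difference of 1 is a doubling. An array signal does not compare the amounts of different genes, and the number of arrays limits the precision.

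Heat shock proteins hold unfolded proteins and help them fold. The Hsp70 proteins bind and release client proteins in a cycle driven by ATP, with Hsp40 proteins such as Dnajb1 delivering clients and Hsp110 proteins such as Hsph1 exchanging the nucleotide. Hsp90 finishes many kinases and receptors, BiP serves the endoplasmic reticulum, and mortalin, Hsp60 and Hsp10 serve the mitochondria. On proteotoxic stress the transcription factor Hsf1 switches on the inducible members. In marrow cells, human FANCC has been described as a partner of Hsp70 outside the core complex that repairs DNA crosslinks.

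Across the arrays, correlations over the tested genes were 0.954 to 0.993 within groups and 0.945 to 0.989 between groups. Fancg, the targeted gene, was lower in the double knockout (log2 change −1.10, limma adjusted p = 0.0105) and was at −0.44 in Fancg-/- (adjusted p = 0.567). Fancc, on its brightest probe set, was at 0.02 in Fancc-/- (adjusted p = 0.962) and −0.26 in the double knockout (adjusted p = 0.266). Another Fancc probe set read 5.69 to 5.87 in Fancc-/- and 5.28 to 5.45 in double-knockout mice, against 5.25 to 5.35 in wild type. Whether the Fancc probes lie in the deleted part was not tested. The sex-linked transcripts split the groups. Xist, made from the inactive X, was at 11.19 to 12.13 in Fancc-/- and 5.99 to 7.39 in double-knockout mice, against 11.30 to 12.23 in wild type. The Y-linked Eif2s3y was at 2.94 to 3.30 in Fancc-/- and 8.81 to 9.35 in double-knockout mice, against 2.89 to 3.20 in wild type. For the double knockout against wild type or against Fancc-/-, sex cannot be told apart from genotype. The interaction draws on these groups as well. Fancg-/- replicate 2 had little Xist (7.34) and high Eif2s3y (9.09). Fancg-/- replicates 1 and 3 stood apart by carrying both marks, with Xist at 11.31 and 10.75 and Eif2s3y at 7.64 and 5.78. On those 2 arrays Fancg itself was at 6.55 and 6.64, against 6.00 on replicate 2 and 6.80 to 6.86 in wild type. Whether these RNAs were mixed or mislabelled was not tested, so every value given for Fancg-/- is that of the libraries labelled so. Markers of cell types moved as well. In Fancc-/-, 10 of 13 erythroid markers rose and 12 of 14 B cell markers fell, and in the double knockout 5 and 12 did. These counts are at a limma adjusted p below 0.05, which 4.53% and 5.28% of all tested genes passed, in that order. In bulk marrow fewer cells of a type and less RNA per cell cannot be told apart.

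Of the 10 heat shock protein genes, 1 differed between a knockout and wild type: Hspa9 rose in the double knockout. Differences were tested with limma and called at a Benjamini-Hochberg adjusted p below 0.05 over all tested genes. In the double knockout this was 1 of 10, beside 5.28% of all tested genes called, and 3 of the 10 were under an unadjusted p of 0.05, as were 24.2% of all tested genes. In Fancc-/- 0 of 10 were called, beside 4.53% of all genes, with 2 of the 10 under an unadjusted p of 0.05, as were 19.8% of all genes. In Fancg-/- 0 of 10 were called, beside 0.0504% of all genes, and 0 were under an unadjusted p of 0.05, as were 7% of all genes. With replicate 2 as the only Fancg-/- array, 0 of 10 were called as well. The median log2 change of the 10 genes was −0.20 in Fancc-/- mice, −0.08 in Fancg-/- mice and −0.01 in double-knockout mice, beside −0.01, 0.01 and −0.01 over all tested genes. With shares this close to the background, the count of calls is not a result about the family, and what follows describes its members. The 3 comparisons share the wild-type arrays.

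**Figure D1:**
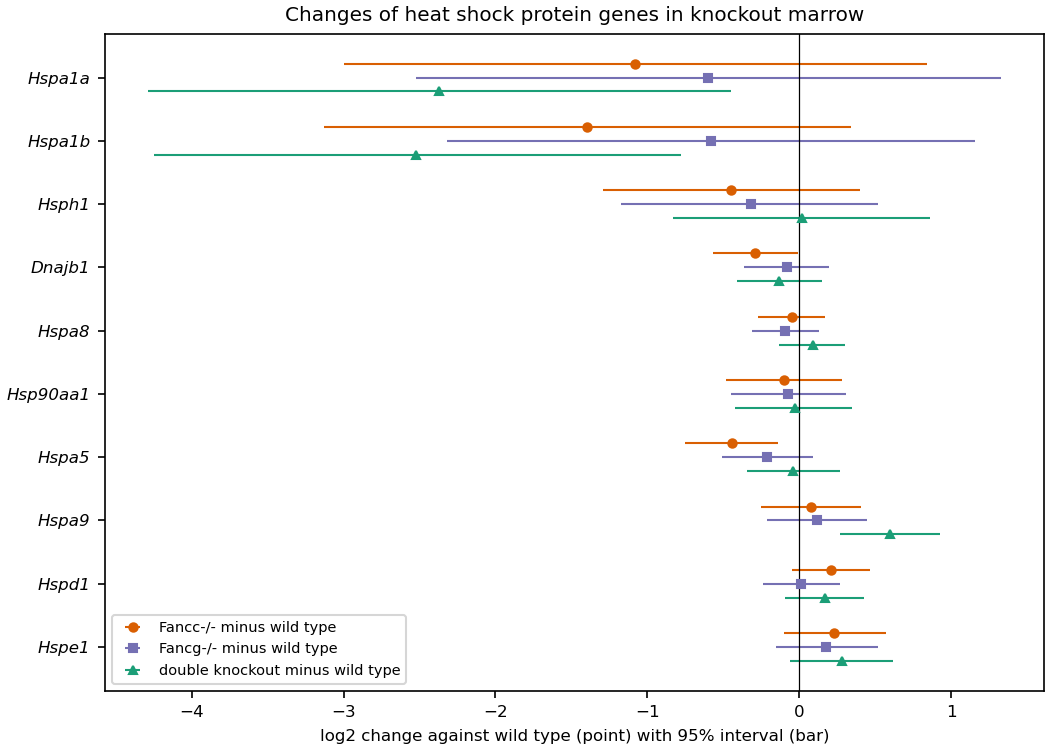
Log2 change (horizontal axis) of each of the 10 genes in Fancc-/-, Fancg-/- and double-knockout marrow minus wild type, as points with 95% intervals from limma, 3 mice per group. The Hspa1a and Hspa1b intervals are the widest of the 10 genes, and Hspa9 in the double knockout is the 1 difference that passed the adjusted threshold.

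Inducible Hsp70, encoded by Hspa1a and Hspa1b, was the most uneven part of the family from mouse to mouse. These neighbouring genes, with 0 protein-coding genes between them in the RefSeq gene table, encode nearly the same protein. Their upstream sequences are shown because the pair moved together across the mice. Both are from RefSeq (GRCm38.p6), 5′ to 3′ on the gene's strand, and end at the base before the annotated start. Capitals mark a pair of heat shock factor units (GAANNTTC or TTCNNGAA, on either strand). The Hspa1a stretch is the minus strand of chr17:34972157-34972406 and the Hspa1b stretch that of chr17:34959239-34959488.
Hspa1a: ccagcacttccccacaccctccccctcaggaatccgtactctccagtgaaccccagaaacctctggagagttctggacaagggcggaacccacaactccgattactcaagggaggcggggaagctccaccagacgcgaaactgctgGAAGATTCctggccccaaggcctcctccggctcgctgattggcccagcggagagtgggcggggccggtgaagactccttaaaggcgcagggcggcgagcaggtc
Hspa1b: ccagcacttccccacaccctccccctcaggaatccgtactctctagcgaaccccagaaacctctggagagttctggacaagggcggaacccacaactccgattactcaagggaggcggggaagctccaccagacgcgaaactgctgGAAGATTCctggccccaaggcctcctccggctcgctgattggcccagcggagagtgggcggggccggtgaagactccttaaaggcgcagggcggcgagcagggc

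The 2 stretches differed at 3 of 250 bases (98.8% identical) and both held the pair at −104 to −97 from the start. A pair occurred in 15.1% of 32851 RefSeq windows of 300 bases (250 before and 50 after a start). A match of letters is a description and shows no binding.

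Hspa1b, on its brightest probe set, read 8.23, 8.63 and 9.33 in Fancc-/- mice 1 to 3. It read 8.95, 11.11 and 8.57 in Fancg-/- mice, and 8.70, 7.25 and 6.88 in double-knockout mice, against 8.35, 11.33 and 10.69 in wild type. The 3 highest arrays were wild-type replicates 2 and 3 and Fancg-/- replicate 2, and the lowest were double-knockout replicates 2 and 3. Wild-type replicate 1 lay below double-knockout replicate 1, so these groups overlapped. The range over the 12 mice was 4.45, a 21.9-fold span. The log2 change was −2.52 ± 0.80 (SE) in the double knockout (limma adjusted p = 0.083), −1.40 ± 0.80 in Fancc-/- (adjusted p = 0.358) and −0.58 ± 0.80 in Fancg-/- (adjusted p = 0.961). Without double-knockout replicate 1 the double-knockout change was −3.06 and passed the threshold (adjusted p = 0.0329). In that setting 1853 of 11908 genes were called, against 629 with all arrays. Without wild-type replicate 2 the double-knockout change was −1.91. Leaving out wild-type replicate 2 or 1 gave −0.79 or −2.28 in Fancc-/- and 0.02 or −1.47 in Fancg-/-. With replicate 2 as the only Fancg-/- array, its change was 0.98. The other Hspa1b probe sets spanned 22.9-fold and 23.8-fold over the mice. Because probes for these near-identical genes can bind either transcript, their signals may not be separate measurements.

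Hspa1a followed the same mice. It read 7.53, 7.35 and 8.65 in Fancc-/- mice 1 to 3, 7.55, 9.91 and 7.53 in Fancg-/- mice, and 7.79, 5.98 and 5.88 in double-knockout mice, against 6.86, 10.29 and 9.61 in wild type. Again the double-knockout and wild-type arrays overlapped, through replicate 1 of each. The double-knockout change was −2.37 ± 0.88 (unadjusted p = 0.0198, limma adjusted p = 0.129), and the Fancc-/- and Fancg-/- changes were −1.08 and −0.60 (adjusted p = 0.533 and 0.967). Without wild-type replicate 2 or 1, the change of Hspa1a was −0.40 or −2.11 in Fancc-/-, 0.09 or −1.63 in Fancg-/- and −1.69 or −3.40 in the double knockout. Across the 12 mice, Hspa1a and Hspa1b correlated at r = 0.98.

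**Figure D2:**
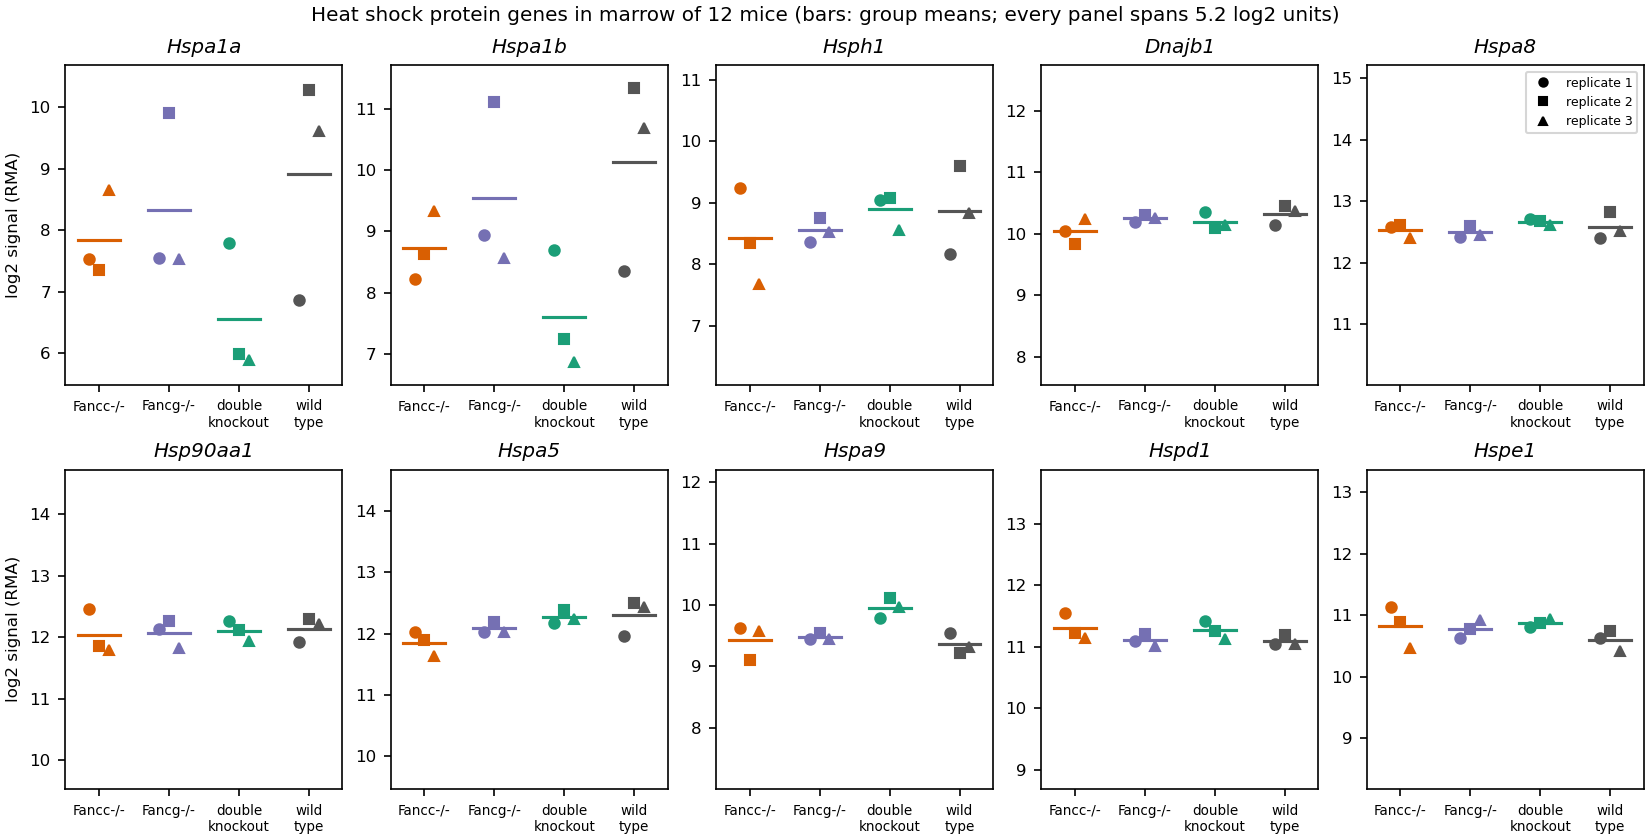
Log2 signal (vertical axis) of the brightest probe set of each of the 10 genes in every mouse, with Fancc-/-, Fancg-/- and double knockout left of wild type, symbols for replicates and bars for group means. Every panel spans the same number of log2 units, so the spread of Hspa1a and Hspa1b over mice can be set against the narrow bands of Hspa8, Hsp90aa1 and Dnajb1.

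The spread between mice of 1 genotype placed Hspa1a and Hspa1b near the top of all genes. Their within-group SD was 1.31 and 1.18 log2 units, ranks 12 and 19 of 11908 tested genes, against a median of 0.19. Hsph1 came next with 0.56, rank 336. The other 7 members had SDs of 0.13 (Hspa8) to 0.25 (Hsp90aa1). The 2 inducible Hsp70 genes thus varied far more between mice than the other members, and a change of the size seen in Hspa9 was not detectable in them at this precision.

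**Figure D3:**
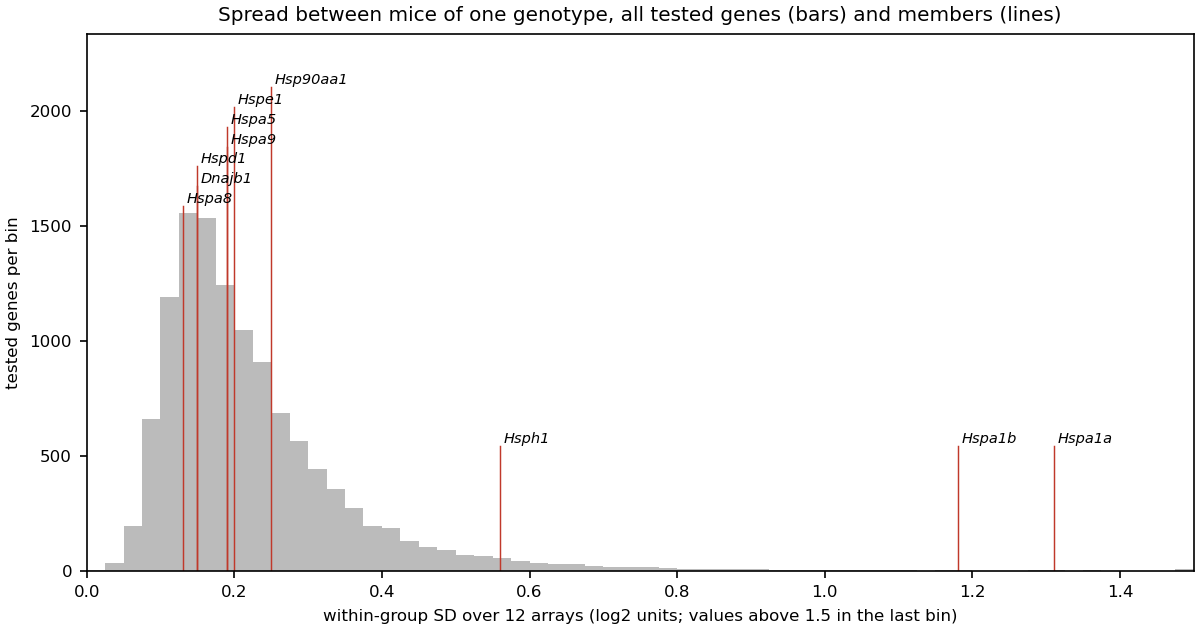
Number of tested genes (vertical axis) by within-group SD in log2 units (horizontal axis), with a line at the SD of each heat shock protein gene. Hspa1a and Hspa1b lie in the far tail at 1.31 and 1.18, and 7 of the 10 members lie between 0.13 and 0.25.

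The mice with high inducible Hsp70 were those with high immediate early transcripts. Immediate early genes, such as Fos, Jun and Egr1, encode transcription factors and feedback regulators that cells switch on within minutes of a stimulus. The mean log2 level of 24 such genes was 10.15, 10.12 and 10.29 in Fancc-/- mice 1 to 3, 10.40, 10.64 and 10.29 in Fancg-/- mice, and 10.49, 9.30 and 9.34 in double-knockout mice, against 10.26, 11.10 and 10.99 in wild type. The 3 highest arrays and the 2 lowest were the same for this mean and for Hspa1b. Over the 12 mice the mean correlated with Hspa1b at r = 0.91 (Spearman 0.92) and with Hspa1a at r = 0.90 (Spearman 0.94). After each group's mean was subtracted, r was 0.83 and 0.85. These are descriptions of 12 arrays that also share genotype and sex marks.

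Dnajb1 followed the immediate early mean less linearly (r = 0.63, Spearman 0.89), with r = 0.74 once group means were subtracted. For Hspa8 and Hsph1, on their brightest probe sets, r was 0.04 and 0.20, and with group means subtracted 0.48 and 0.37. For Hspa9 it was −0.74, and −0.47 with group means subtracted. The dimmest Hspa8 probe set read 6.60 in wild-type replicates 2 and 3, and 5.39 and 5.48 in double-knockout replicates 2 and 3. The relation of that probe set to the immediate early mean was not tested. In the double knockout the median change of the 24 immediate early genes was −1.05. Of these, 11 fell and 0 rose, beside 5.28% of all tested genes called. Egr1 (−2.35, limma adjusted p = 0.0295), Jun (−2.09, adjusted p = 0.0185), Fos (−1.81, adjusted p = 0.0211), Klf2 (−1.79, adjusted p = 0.0323) and Zfp36 (−1.79, adjusted p = 0.0174) had the largest changes among them. In Fancc-/- 3 fell (Dusp2, Klf4 and Gadd45b), beside 4.53% of all genes called, with a median of −0.51. In Fancg-/- 0 were called (2 at an unadjusted p under 0.05), beside 0.0504% of all genes, with a median of −0.36. At that unadjusted level there were 19 in the double knockout (79.2%), beside 24.2% of all genes. In Fancc-/- there were 7 (29.2%), beside 19.8%. The part of this variation in the Hspa1a and Hspa1b differences was not tested. Of all other tested genes, those most like Hspa1b over the 12 arrays were Nfkbid (r = 0.96), Egr2 (r = 0.95) and Ccl4 (r = 0.91). For Hspa1a they were Nfkbid (r = 0.97), Egr2 (r = 0.95) and Kdm3b (r = 0.90). Egr2 is on the immediate early list and so is part of its mean. All of these were picked for the highest r, so its size shows no relation by itself.

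**Figure D4:**
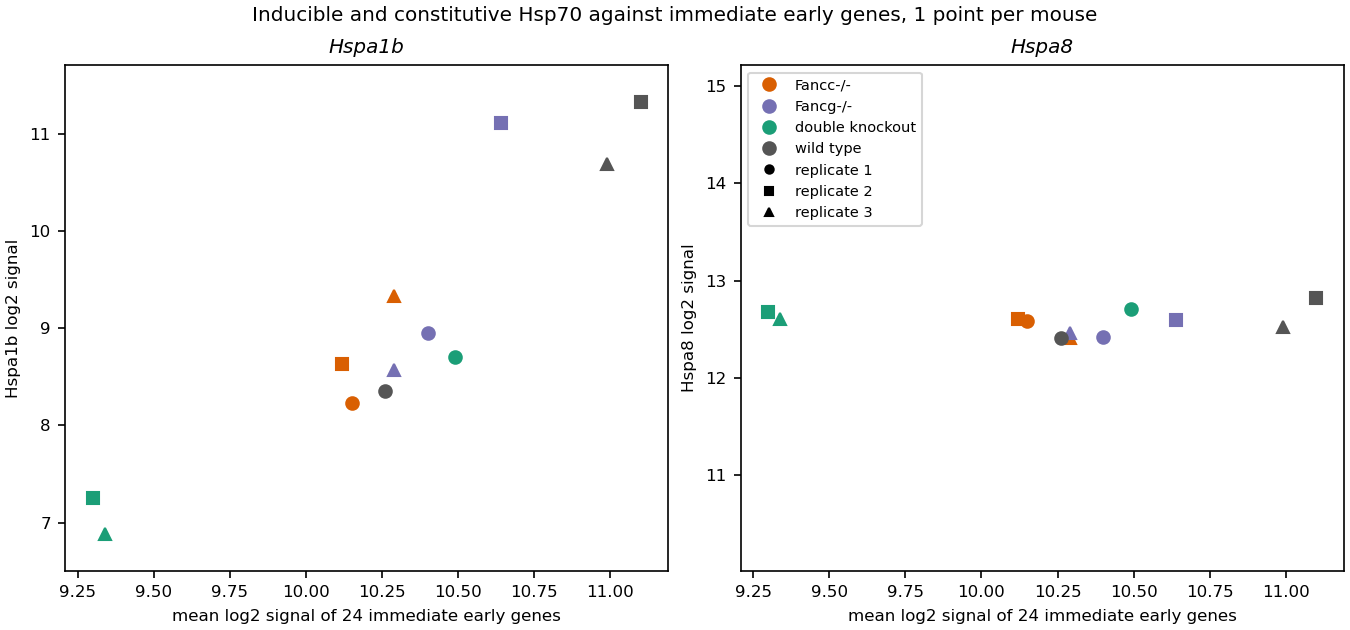
Log2 signal of Hspa1b (left) and Hspa8 (right) against the mean log2 signal of 24 immediate early genes, with 1 point per mouse, colours for genotypes and symbols for replicates. Hspa1b climbs along the axis (r = 0.91) over a 21.9-fold span, while the brightest Hspa8 probe set stays within 12.41 to 12.82. The dimmest Hspa8 probe set, not drawn, spanned 2.31-fold.

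The 4 other cytosolic members, Hsph1, Dnajb1, Hspa8 and Hsp90aa1, were not called against wild type. Hsph1, the exchange factor, read 9.25, 8.34 and 7.68 in Fancc-/- mice 1 to 3, 8.37, 8.76 and 8.53 in Fancg-/- mice, and 9.04, 9.08 and 8.56 in double-knockout mice, against 8.17, 9.60 and 8.84 in wild type. All 3 knockout groups overlapped wild type. Its log2 changes were −0.45 ± 0.39, −0.32 ± 0.39 and 0.02 ± 0.39 (limma adjusted p = 0.561, 0.957 and 0.983). Wild-type replicate 2 was the highest array for both Hsph1 and Hspa1b. Over the 12 mice these genes correlated at r = 0.22 (0.39 with group means subtracted), whereas Hsph1 correlated with Hspa8 at 0.81, with Hsp90aa1 at 0.81 and with Hspa5 at 0.80.

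Dnajb1, the Hsp40 that delivers clients, read 10.05, 9.83 and 10.24 in Fancc-/- mice 1 to 3, 10.19, 10.31 and 10.26 in Fancg-/- mice, and 10.35, 10.10 and 10.15 in double-knockout mice, against 10.15, 10.46 and 10.38 in wild type. Fancc-/- was lower on average, with 1 mouse inside the wild-type range. Its change there was −0.29 ± 0.13 (unadjusted p = 0.0418, limma adjusted p = 0.233), and the changes in Fancg-/- and the double knockout were −0.08 and −0.13. The other Dnajb1 probe set gave −0.33, −0.07 and −0.36 in that order of genotypes.

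Hspa8, the constitutive Hsp70, read 12.41 to 12.61 in Fancc-/- mice, 12.42 to 12.60 in Fancg-/- mice and 12.61 to 12.71 in double-knockout mice, against 12.41 to 12.82 in wild type. On this brightest probe set the changes were −0.05, −0.09 and 0.09, each with an SE of 0.10 and all groups overlapping wild type. Its other probe sets did not give the same picture. In Fancc-/- they were at −0.39, −0.43 and −0.32, and in the double knockout at −0.09, 0.01 and −0.78. None of these passed the adjusted threshold when every probe set was fitted, with the smallest adjusted p at 0.0819 for the dimmest one in the double knockout.

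Hsp90aa1, the stress-responsive Hsp90, read 11.80 to 12.46 in Fancc-/- mice, 11.83 to 12.26 in Fancg-/- mice and 11.94 to 12.27 in double-knockout mice, against 11.92 to 12.29 in wild type. The changes were −0.10, −0.07 and −0.03, each with an SE of 0.18, and its other tested probe sets lay between −0.26 and −0.02. The 95% intervals were −0.48 to 0.28 in Fancc-/- mice, −0.45 to 0.31 in Fancg-/- mice and −0.42 to 0.35 in double-knockout mice.

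Among 23 tested Hsp70 relatives and co-chaperones, 2 rose and 2 fell in Fancc-/-, beside 4.53% of all tested genes called. At an unadjusted p under 0.05 there were 7 (30.4%), beside 19.8% of all genes. The risers were Dnaja4, an Hsp40 (1.29 ± 0.32, limma adjusted p = 0.0446), and Bag2, a co-chaperone of Hsp70 (0.90, adjusted p = 0.0396). The fallers were Dnajc7 (−0.90, adjusted p = 0.0256) and Hspa2, an Hsp70 known from the male germ line (−0.74, adjusted p = 0.0155). In the double knockout Dnajb4, an Hsp40, rose (1.07 ± 0.21, adjusted p = 0.0211), as did Bag5 (0.79, adjusted p = 0.0179), and Hspa2 fell (−0.64, adjusted p = 0.0328). Of all tested genes, 5.28% were called there. At an unadjusted p under 0.05 there were 9 of the 23 (39.1%), beside 24.2% of all genes. In Fancg-/- 0 of the 23 were called by limma, beside 0.0504% of all genes. There 2 (8.7%) were at an unadjusted p under 0.05, beside 7% of all genes, and Hspa2 was at −0.42 (adjusted p = 0.533). Median changes of this list were −0.04 in Fancc-/- mice, −0.06 in Fancg-/- mice and 0.08 in double-knockout mice. By limma, 0 members of the Hsp90 machinery were called in any of the 3 comparisons (10 tested, medians −0.20, −0.05 and −0.02). At an unadjusted p under 0.05 there were 4 in Fancc-/-, 0 in Fancg-/- and 1 in double-knockout mice, beside 19.8%, 7% and 24.2% of all genes. None of 6 small heat shock proteins was called, with 1, 0 and 1 at that level. In Fancc-/- the co-chaperones Fkbp4 (−0.49) and Chordc1 (−0.67) had adjusted p = 0.137 and 0.202. Of the heat shock factors, only the binding protein Hsbp1 was tested, at −0.32, −0.03 and −0.21, and Hsf1 was not analysed here.

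BiP, encoded by Hspa5, was lower in Fancc-/- than in wild type on average, without passing the adjusted threshold. It read 12.02, 11.90 and 11.64 in Fancc-/- mice 1 to 3, 12.03, 12.19 and 12.03 in Fancg-/- mice, and 12.17, 12.39 and 12.23 in double-knockout mice, against 11.96, 12.50 and 12.43 in wild type. On its brightest probe set every double-knockout array lay above every Fancc-/- array, while Fancc-/- overlapped wild type through wild-type replicate 1. The Fancc-/- change was −0.44 ± 0.14 (unadjusted p = 0.00774, limma adjusted p = 0.0974). It was −0.61 and passed the threshold without wild-type replicate 1 (adjusted p = 0.0218). The changes in Fancg-/- and the double knockout were −0.21 (adjusted p = 0.875) and −0.04 (adjusted p = 0.911). A second probe set gave −0.59 in Fancc-/-, and the third 0.01, so the probe sets disagreed. On the third, double-knockout mice read 9.34 to 9.48, below Fancc-/- mice at 9.55 to 9.58.

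The double knockout set against Fancc-/- gave 0.41 ± 0.14 for Hspa5 (limma adjusted p = 0.154), and 0 of the 10 genes were called there, beside 0.0084% of all genes, with 2 of the 10 under an unadjusted p of 0.05 and 19.7% of all genes. The interaction, which takes both single-knockout changes away from that of the double knockout, was 0.62 ± 0.20 for Hspa5 (unadjusted p = 0.0084, adjusted p = 0.194). It was called for 0 of 10 genes, beside 0.0084% of all genes, with 1 of the 10 under an unadjusted p of 0.05 and 14.9% of all genes. For the other members the interaction ranged from −0.69 for Hspa1a to 0.79 for Hsph1. The sex marks split the double knockout from Fancc-/-, so sex cannot be told apart from genotype between them.

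The Hspa5 promoter is shown for its endoplasmic reticulum stress element, the sequence through which the unfolded protein response acts on BiP. The 120 bases before the start on the plus strand of chr2:34771970-34772089 (RefSeq, GRCm38.p6) have the element, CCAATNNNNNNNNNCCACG on either strand, in capitals.
Hspa5: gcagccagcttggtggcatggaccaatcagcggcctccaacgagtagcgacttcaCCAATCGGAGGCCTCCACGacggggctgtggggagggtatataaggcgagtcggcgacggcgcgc

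The element lies at −65 to −47 and occurred in 0.119% of 32851 windows. Other chaperones and stress genes of the endoplasmic reticulum were read beside BiP. In Fancc-/- 0 of 22 were called (6 at an unadjusted p under 0.05, or 27.3%, beside 19.8% of all genes) and 5 lay above 0, with a median of −0.19. Hsp90b1, the Hsp90 of this compartment, was at −0.55 (limma adjusted p = 0.0986), and the disulfide isomerase P4hb at −0.27 (adjusted p = 0.157). In Fancg-/- 0 were called (0 unadjusted) with a median of −0.11. In the double knockout 0 were called (5 unadjusted) with a median of 0.06, and Atf4 (0.61, adjusted p = 0.0636) and the Hsp40 Dnajb9 (−0.62, adjusted p = 0.084) came closest. Plasma cells are rich in this machinery. Of 9 plasma cell markers, Irf4 and Slamf7 fell in Fancc-/- mice (−1.54 and −0.82) and in double-knockout mice (−1.35 and −0.83). Of all tested genes, 4.53% and 5.28% were called in these groups. The median change of the list was −0.08 in Fancc-/- mice and −0.07 in double-knockout mice, with 4 of the 9 above 0 in each. In Fancg-/- mice it was −0.21, with 2 of the 9 above 0. Irf4 and Slamf7 were at −1.42 and −0.73 there (limma adjusted p = 0.0986 and 0.166). The mean level of the list was 7.12 to 7.97 in Fancc-/- mice, 7.20 to 7.60 in Fancg-/- mice and 7.37 to 7.75 in double-knockout mice, against 7.70 to 8.05 in wild type. The part of plasma or B cells in the Hspa5 difference was not tested.

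Mortalin, encoded by Hspa9, was the 1 member that passed the test. It imports proteins into mitochondria and takes part in iron-sulfur cluster assembly, and loss of human HSPA9 has been linked to impaired red cell formation. It read 9.63, 9.10 and 9.58 in Fancc-/- mice 1 to 3, 9.44, 9.54 and 9.45 in Fancg-/- mice, and 9.79, 10.11 and 9.97 in double-knockout mice, against 9.54, 9.22 and 9.31 in wild type. All 3 double-knockout arrays lay above the other 9. The group means were 9.44 ± 0.29 in Fancc-/- mice, 9.48 ± 0.05 in Fancg-/- mice and 9.96 ± 0.16 in double-knockout mice, against 9.36 ± 0.17 in wild type (SD, n = 3 each).

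The double-knockout change of Hspa9 was 0.60 ± 0.15, or 1.51-fold (95% interval 0.27 to 0.93 on the log2 scale, limma adjusted p = 0.0451). The single knockouts were at 0.08 (adjusted p = 0.823) and 0.12 (adjusted p = 0.961). Against Fancc-/- the double knockout was 0.52 higher (adjusted p = 0.117), and against Fancg-/- 0.48 higher (adjusted p = 0.211), so a difference from either single knockout was not shown. The interaction was 0.41 ± 0.21 (adjusted p = 0.406). The call lay close to the threshold and was kept under 10 of 26 alternative settings and lost under 16, while the change stayed above 0 in all 26. Among single arrays, it was lost without any 1 of the wild-type or Fancg-/- arrays, or without double-knockout replicate 2 or 3 (adjusted p up to 0.178). With Xist in the model the change was 0.39 (adjusted p = 1), and under that setting 0 of 11908 genes were called between the double knockout and wild type.

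**Figure D5:**
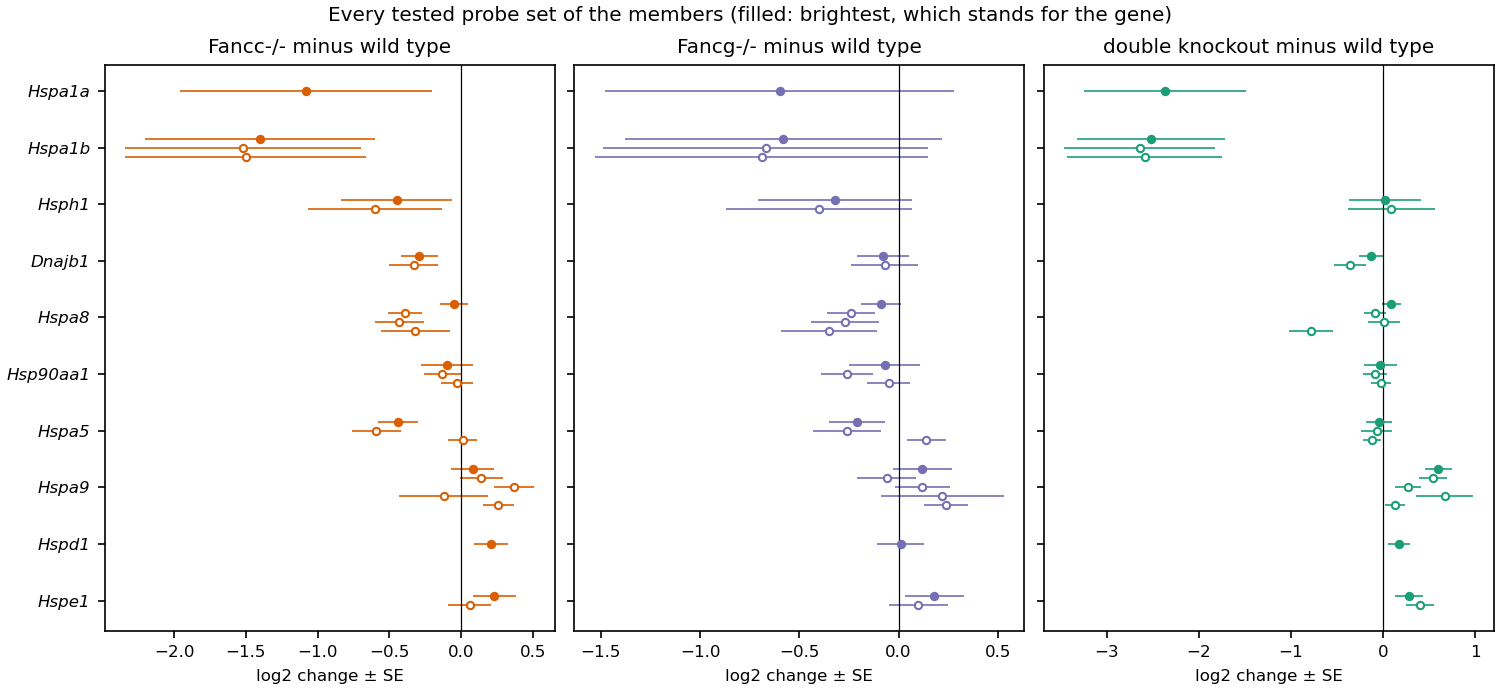
Log2 change (horizontal axis, ± SE) of each tested probe set of the 10 genes in Fancc-/-, Fancg-/- and double-knockout marrow minus wild type, with the brightest probe set of a gene filled. The 5 Hspa9 probe sets lie above 0 in the double knockout, between 0.13 and 0.67. In Fancc-/- the probe sets of Hspa8, of Hspa5 and of Hspa9 disagree with each other.

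The other Hspa9 probe sets gave double-knockout changes of 0.54, 0.27, 0.67 and 0.13. For the probe sets at 0.27 and 0.13, the Fancc-/- changes were larger, at 0.37 and 0.26. Their Fancg-/- changes were 0.12 and 0.24. The next brightest read 8.72, 8.30 and 8.67 in Fancc-/-, 8.35, 8.46 and 8.29 in Fancg-/- mice, and 8.80, 9.00 and 9.08 in double-knockout mice, against 8.66, 8.31 and 8.29 in wild type. The double-knockout arrays were again above the other 9. With every probe set fitted, the adjusted p was 0.0513 for the brightest and 0.0659 for this one. Genes most like Hspa9 over the 12 arrays were Ndufs3 (r = 0.96), Prmt5 (r = 0.95) and Alg5 (r = 0.94). Erythroid markers had a mean of 10.84 to 11.23 in Fancc-/- mice, 10.44 to 10.62 in Fancg-/- mice and 10.23 to 11.10 in double-knockout mice, against 9.69 to 10.07 in wild type. B cell markers had a mean of 5.72 to 6.31 in Fancc-/- mice, 6.28 to 7.89 in Fancg-/- mice and 6.21 to 6.35 in double-knockout mice, against 8.33 to 8.79 in wild type. The part of cell composition in the Hspa9 difference was not tested.

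The mitochondrial chaperonin pair Hspd1 and Hspe1 was not called in any comparison. Hsp60 forms a folding chamber and Hsp10 its lid, and the neighbouring genes share the sequence between their starts. It is shown because both starts draw on it. Printed are the 120 bases before the Hspe1 start on the plus strand of chr1:55088028-55088147 (RefSeq, GRCm38.p6). Capitals mark heat shock triplets (GAANNTTCNNGAA or TTCNNGAANNTTC, on either strand), here 2 that overlap.
Hspe1: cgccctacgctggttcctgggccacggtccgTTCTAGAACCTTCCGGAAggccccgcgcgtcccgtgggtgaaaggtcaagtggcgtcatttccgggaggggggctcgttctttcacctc

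The triplets lie at −89 to −77 and −84 to −72 from the Hspe1 start, and the same bases are at −144 to −127 from 1 annotated Hspd1 start. A triplet occurred in 0.603% of 32851 windows. Of the 10 genes, 7 had a window in the table, and Hspa8, Hsp90aa1 and Hspa9 had none. Hsph1 held a triplet after its start, at 37 to 49 or 16 to 28 depending on the annotated start, and no window of Hspa1a, Hspa1b, Dnajb1 or Hspa5 held these letters.

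Hspd1 read 11.55, 11.22 and 11.15 in Fancc-/- mice 1 to 3, 11.10, 11.21 and 11.02 in Fancg-/- mice, and 11.42, 11.26 and 11.12 in double-knockout mice, against 11.04, 11.19 and 11.05 in wild type. All groups overlapped wild type, and the changes were 0.21, 0.01 and 0.17, each with an SE of 0.12. Hspe1 read 11.13, 10.89 and 10.46 in Fancc-/- mice 1 to 3, 10.63, 10.78 and 10.92 in Fancg-/- mice, and 10.81, 10.87 and 10.93 in double-knockout mice, against 10.63, 10.74 and 10.41 in wild type. Every double-knockout array was above every wild-type array, and the change was 0.28 ± 0.16 (limma adjusted p = 0.309). In Fancc-/- and Fancg-/- the Hspe1 changes were 0.23 and 0.18. The second Hspe1 probe set was at 0.40 in the double knockout (adjusted p = 0.143 over all probe sets). Over the 12 mice Hspd1 and Hspe1 correlated at r = 0.59, while Hspd1 and Hsp90aa1, once group means were subtracted, correlated at r = 0.93.

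Among 12 other mitochondrial chaperones and proteases, 1 rose in Fancc-/-: Hscb, a co-chaperone of mortalin in iron-sulfur cluster assembly (0.60 ± 0.14, limma adjusted p = 0.036). In the double knockout 0 of 12 were called (3 at an unadjusted p under 0.05) and in Fancg-/- 0 (0 unadjusted). In the double knockout the nucleotide exchange factor of mortalin, Grpel1, was at 0.41 (adjusted p = 0.0728) and the protease Clpp at 0.39 (adjusted p = 0.082). The medians were 0.11 in Fancc-/- mice, 0.06 in Fancg-/- mice and 0.12 in double-knockout mice. Of the 8 subunits of the cytosolic chaperonin CCT, a relative of Hsp60, 1 rose in the double knockout, Cct6a (0.40, adjusted p = 0.0483), and all 8 lay above 0 with a median of 0.19. In Fancc-/- and Fancg-/- 0 of 8 were called, and 0 were under an unadjusted p of 0.05. In the double knockout 4 of the 8 were under it, beside 24.2% of all genes. Of all tested genes, 4.53% were called in Fancc-/- and 5.28% in the double knockout. Of the known partners of FANCC outside the core complex, 0 of 3 were called in any knockout, with 1 under an unadjusted p of 0.05 in Fancc-/- and 0 elsewhere. Gstp1 was at 0.37 in Fancc-/- (adjusted p = 0.0566), and the interferon-induced kinase Eif2ak2 was at 0.39 (adjusted p = 0.455).

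Between knockouts, 0 of the 10 heat shock protein genes were called with limma. The double knockout against Fancg-/- had 0 of 10, beside 0% of all genes, with 2 of the 10 under an unadjusted p of 0.05 (Hspa1b at −1.94 and Hspa9 at 0.48) and 14.4% of all genes. Fancg-/- against Fancc-/- had 0 of 10, beside 0.109% of all genes, with 0 under an unadjusted p of 0.05 and 9.04% of all genes.

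In order of group means on the brightest probe sets, Hspa1a, Hspa1b, Hsp90aa1, Hspa5 and Dnajb1 each had wild type at the top. For Hspa1a and Hspa1b the order downward was Fancg-/-, Fancc-/- and double knockout, and neighbouring groups overlapped at every step. Hspa9 had the double knockout at the top, separate from the others, and the other groups overlapped each other. On some dimmer Hspa9 probe sets Fancc-/- had the highest mean, at 6.96 and 5.23, against 6.86 and 5.10 in the double knockout. Hspa5 had Fancc-/- at the bottom, with no overlap with the double knockout. Its highest Fancc-/- array, at 12.02, lay only just below the lowest Fancg-/- array, at 12.03. On the second Hspa5 probe set Fancc-/- and Fancg-/- overlapped (10.98 against 10.95). On the third the double knockout had the lowest mean, 9.43, against 9.57 in Fancc-/-.

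For the remaining members, the genes whose levels ran most alike over the 12 arrays are given as a description. Hspa5 ran with P4ha1 (r = 0.92), a prolyl hydroxylase of the endoplasmic reticulum, and with Siah2 and Ahnak (both r = 0.90). Hspe1 ran with Fastkd2 and Aldh18a1 (both r = 0.91), which act in mitochondria, and with Fpgs (r = 0.90). For Hspa8, Hsp90aa1, Hsph1, Dnajb1 and Hspd1 the closest genes were Gcn1 (r = 0.84), Pmaip1 (r = 0.86), Mdn1 (r = 0.89), Cxcr5 (r = 0.86) and Igkv8-30 (r = 0.89), in that order. These genes, and those given above for Hspa9, were picked for the highest r among the tested genes outside the family. The size of r therefore shows no relation by itself.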

How the data were processed

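Log2 signals of each probe set, as the authors deposited them, were made with RMA, per the submitters' processing notes, which also name Partek without versions. RMA adjusts background and quantile-normalizes arrays together, which can mask a shift common to most genes. Labelling used 2 µg of RNA per array, except 0.91 µg for Fancg-/- replicate 3. Of 45101 probe sets, 34945 had 1 gene symbol, 932 had several and 9160 none; only the first kind was used. A gene was represented by its brightest probe set and tested if that was above the array median (percentile 50) on at least 3 arrays.

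The tests used limma 3.58.1 (R 4.3.3) and 1 model of the 12 arrays and 4 genotypes with a variance trend (8 residual degrees of freedom). Tests were two-sided, with Benjamini-Hochberg adjustment over 11908 genes per comparison in 7 comparisons, and the method was tested on simulated data. In the lists, up to 4 called genes are named per comparison with wild type, or the 2 of smallest p as values. Genes most like a member are the 3 of highest Pearson r. Members and lists were chosen with earlier results of these data known. Alternatives changed the filter, probe set, scaling, variance model, weights and covariates, or left out arrays. Same-numbered arrays of different genotypes deviated together with correlations of −0.37 to 0.20 (18 pairs, 5 above 0.1), so the numbers were not taken as pairs. Sequences came from RefSeq.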

Additional observations from a re-analysis of the deposited data

How the results depend on the processing

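The count of heat shock protein genes called in the double knockout against wild type, 1 in the model reported, was 0 without a brightness filter, with the mean of all probe sets, with every probe set fitted, with arrays centred on their medians, with quantile normalization repeated, with Xist as a covariate, and without Fancg-/- arrays 1 and 3. With the replicate number as a block it was also 0 (Hspa9 adjusted p = 0.0636); the block changed no other call of a member. With array weights it was 3 (Hspa1a, Hspa1b and Hspa9), beside 3382 of 11908 genes. Under these weights 1 member was called in the double knockout against Fancc-/-, 2 against Fancg-/- and 1 for the interaction. Beside these stood 1727, 2250 and 1035 of 11908 genes, in that order. Leaving out each array in turn gave 0 to 2 calls in the double knockout against wild type, 0 to 1 in Fancc-/- against wild type (Hspa5, without wild-type replicate 1) and 0 to 1 in the double knockout against Fancc-/- (Hspa9, without double-knockout replicate 1). Among all 11908 tested genes, the double knockout without its replicate 1 had 1853 called against wild type and 1285 against Fancc-/-. Without wild-type replicate 1, Fancc-/- had 340 called against wild type. The call of Hspa9 had adjusted p of 0.0188 to 0.178 when 1 array was left out. No called change reversed. Over all genes, calls in the double knockout against wild type ran from 0 (Xist as a covariate) to 3382 (array weights), against 629, and in Fancc-/- against wild type from 175 to 755, against 540. Hspa5 and Hsph1 had no value with unique probe sets only, and the interaction none with only the groups compared. With 3 arrays per group, the within-group SD of Hspa1a and Hspa1b limits what could be detected in them; the causes of these shifts were not tested.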
